A study of Homo sapiens with 2 samples.

Results

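The mitochondrial ribosomal protein genes were examined in HEL cells, a human erythroleukemia cell line, after treatment with the 3,3′-diindolylmethane derivative L1 at 1 µM or with 0.5% DMSO for 24 h. The genes were chosen by symbol alone, as all those named MRPL or MRPS with a number and, at most, the letter A, B or C. No measured value entered this rule, although it was set with earlier results of these data known. This gave 78 genes of the 13924 with a deposited FPKM value (fragments per kilobase of gene length, scaled to library size) and of the 61806 in the count table, and no gene of the count table with a symbol of this form lacked an FPKM value. Both libraries came from unmodified (WT) HEL cells, 1 per condition, with 32556872 counts for DMSO and 27135647 for L1. The spread between cultures was therefore not measured, no test was run, and no difference below has a replicate check.

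Mitochondria keep ribosomes of their own, which translate the mRNAs of the mitochondrial genome into subunits of the respiratory chain and of ATP synthase. The rRNAs of these ribosomes are transcribed inside the organelle, whereas every protein of both subunits is encoded in the nucleus, made in the cytosol and imported. Many of the proteins have a counterpart in bacterial ribosomes, and others are found only in mitochondria. The mitoribosome is known as the source of the membrane-embedded core of oxidative phosphorylation, and inherited defects of its proteins cause respiratory chain deficiency.

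The level of the mitoribosomal protein genes as a group was nearly the same in both libraries. After scaling by edgeR's TMM method, the median log2 ratio of L1 over DMSO was 0.02 over the 78 genes, with an exact binomial interval of the median over genes from -0.09 to 0.08, beside -0.004 over all 18123 genes with at least 10 counts in 1 library. The genes were split almost evenly by direction, with 42 above 0 and 36 below it. Summed over all 78, there were 150049 counts under DMSO and 122946 under L1, or 0.461% and 0.453% of the library. MRPL42 was the exception, since it was 4.41-fold lower in the L1 library.

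Only MRPL42 lay past 2-fold, and it made up 1.28% of the group. Among all genes with at least 10 counts in 1 library, 4.83% were lower by 2-fold or more and 7.12% higher by 2-fold or more, and none of the 78 was at least 2-fold higher. At 1.5-fold, 3 genes were lower (MRPL42, MRPS34 and MRPS27; 3.85% of the group) and 2 were higher (MRPS16 and MRPL49; 2.56%). The shares over all genes at 1.5-fold were 11.4% lower and 13.8% higher. Genes with few counts pass such thresholds more easily, and 77 of the 78 had at least 100 counts in 1 library. Among the 12365 genes with that many counts, 2.92% were 2-fold lower or more, 3.13% were 2-fold higher or more, 8.22% were past 1.5-fold downwards and 7.38% upwards. The remaining 73 mitoribosomal protein genes stayed within 1.5-fold.

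Ratios of single genes use the counts alone, and each has an exact 95% Clopper-Pearson interval from the split of its counts between the libraries, which covers counting error only. This interval lay wholly above 0 for 24 genes (30.8%) and wholly below 0 for 27 (34.6%), while it held 0 for the other 27. Among all genes with at least 100 counts in 1 library, 30.5% lay wholly above 0 and 36.7% wholly below, so the share of these genes with a direction beyond counting error was near the background.

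**Figure D1:**
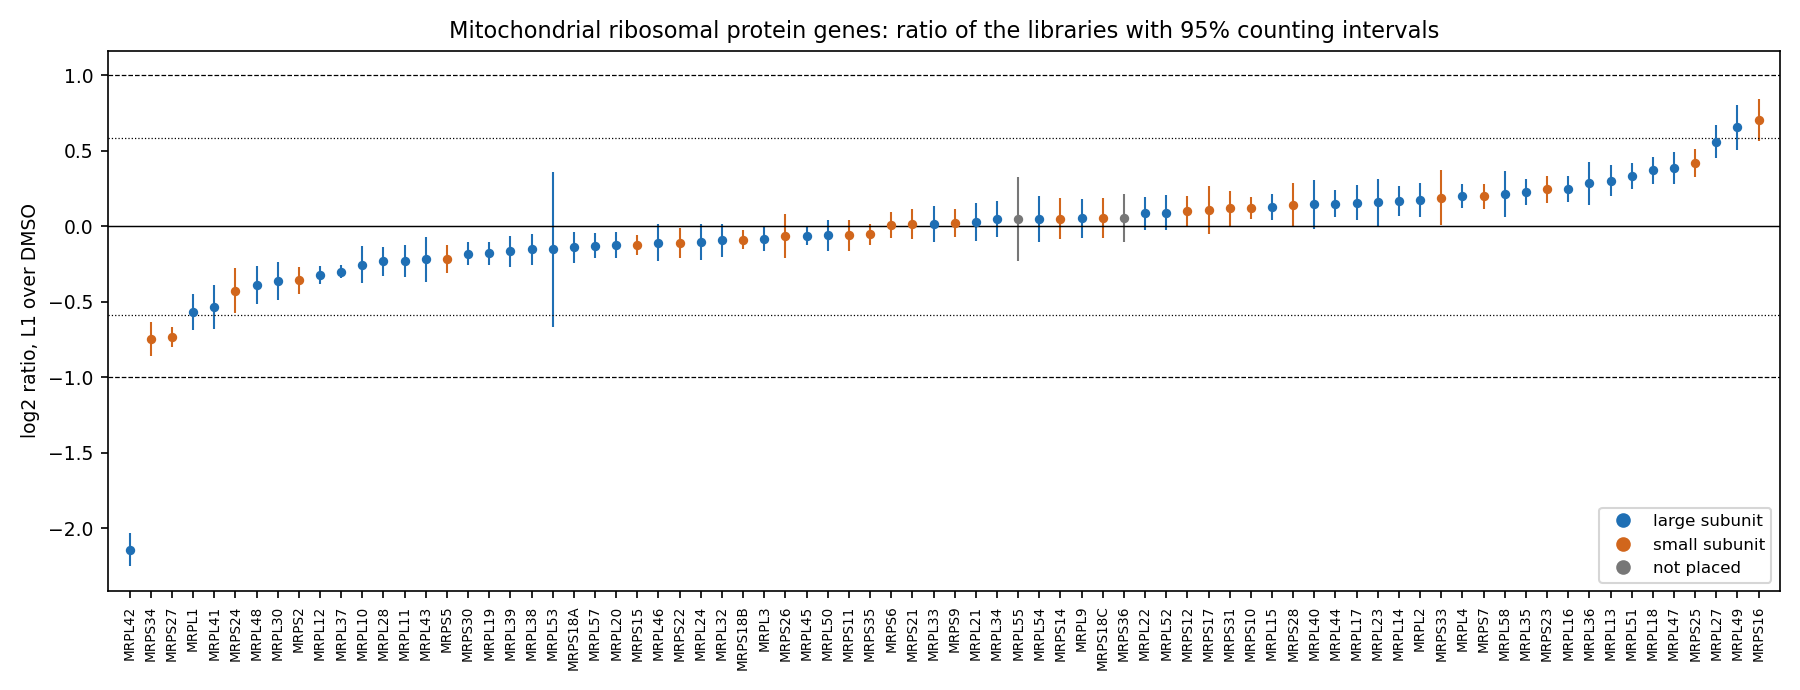
Log2 ratio of L1 over DMSO (y axis) for each of the 78 genes, in order, with 95% counting intervals as bars, the large subunit in blue, the small subunit in orange and 2 genes placed in neither in grey. Dotted lines mark 1.5-fold and dashed lines 2-fold. MRPL42 stands alone at -2.14, and the next lowest gene, MRPS34, is at -0.75.

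The spread of the ratios was narrower than over all genes with at least 100 counts in 1 library, a background not matched for counts. The quartiles of the 78 genes were -0.15 and 0.15, and 73.1% had a log2 ratio between -0.25 and 0.25. Among all genes with at least 100 counts in 1 library, the quartiles were -0.26 and 0.19, and 54.3% were between -0.25 and 0.25. The 80 cytosolic ribosomal protein genes, which build the ribosomes outside mitochondria, had quartiles of -0.12 and 0.10 around a median log2 ratio of -0.01. The counts of the mitoribosomal genes ranged from 76 for MRPL53 to 10539 for MRPL37 in DMSO. MRPL53, with 76 counts under DMSO and 59 under L1, had the fewest, and its interval from -0.67 to 0.36 was the widest. The median over the 78 genes was 1622 counts in DMSO, and genes nearer to 100 counts have more counting error in their ratios. How much of the narrower spread comes from this was not tested, and none of these differences in spread was tested.

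**Figure D2:**
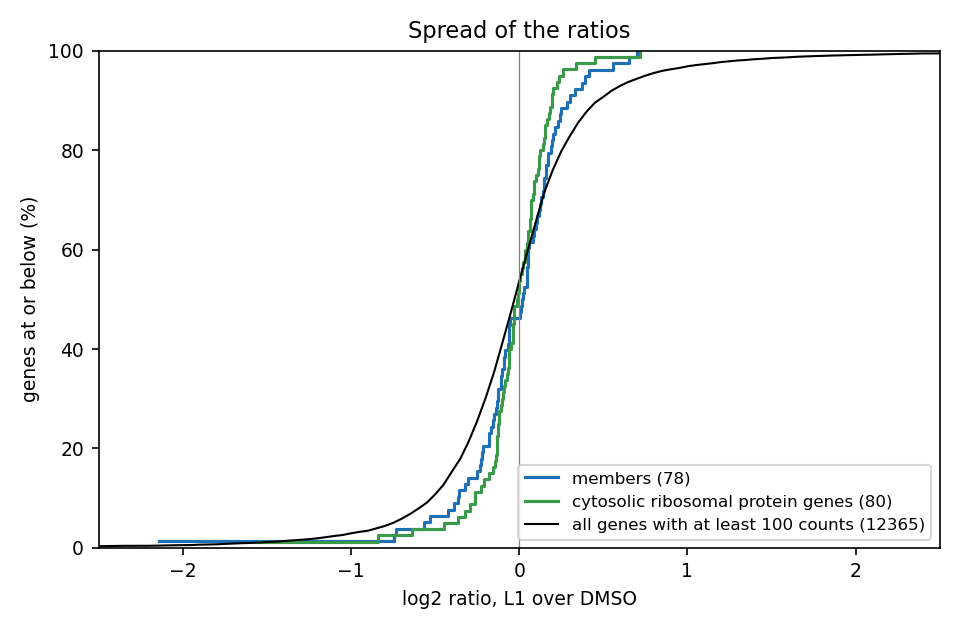
Share of genes at or below a given log2 ratio of L1 over DMSO (x axis) for the 78 mitoribosomal protein genes, the 80 cytosolic ribosomal protein genes and the 12365 genes of which 1 library held 100 counts or more. All 3 curves cross 0 near the middle, and both ribosomal curves are steeper there than that of all genes. The lists were not matched for counts.

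MRPL42 (ENSG00000198015, chromosome 12 from 93467488 to 93516213 on GRCh38, plus strand) encodes a protein of the large subunit with no bacterial counterpart. It was counted 4170 times under DMSO and 815 times under L1, where the FPKM was 8.01 and 1.82. This is a log2 ratio of -2.14 (95% interval -2.25 to -2.03). Of its 31-base words, 8.57% also occur in transcripts of another gene. Its exons overlap those of 1 other gene on the same strand, RN7SL737P, which had 1 count in DMSO and 2 in L1, and its 4 pseudogenes had at most 2 counts in either library. Summing these overlapping genes left its log2 ratio inside the interval above. The exons of all annotated MRPL42 transcripts together cover 16.4 kb, whereas its median protein-coding transcript is 0.92 kb long. A count per gene does not say which of these exons the reads lay on.

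The protein-coding genes around MRPL42 had ratios on both sides of 0. NUDT4, which encodes a diphosphoinositol polyphosphate phosphohydrolase and lies 59.3 kb before it, had 7046 counts under DMSO and 2243 under L1, a log2 ratio of -1.44 (95% interval -1.51 to -1.37). UBE2N, a ubiquitin-conjugating enzyme gene between NUDT4 and MRPL42, had 4370 and 4049 counts, a log2 ratio of 0.10 (0.04 to 0.17). On the other side, SOCS2, a feedback inhibitor of cytokine signalling, had 543 and 303 counts and a log2 ratio of -0.63. CRADD, the adaptor of a death-domain complex, had 355 and 365 counts and a log2 ratio of 0.25. These are the only protein-coding genes with at least 100 counts within 500 kb of MRPL42: 2 had a ratio below 0 and 2 above. The neighbours were looked at after the ratio of MRPL42 was known.

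MRPS34 (ENSG00000074071, chromosome 16 from 1771890 to 1773155, minus strand), a small subunit protein needed for the stability of that subunit, had 1858 counts under DMSO and 956 under L1. Its FPKM was 53.5 under DMSO and 31.9 under L1, and its log2 ratio was -0.75 (95% interval -0.86 to -0.63). None of its 31-base words occurs in another gene, and no annotated exon overlaps its own. The next gene, EME2, encodes a subunit of a structure-specific DNA endonuclease and is transcribed away from MRPS34 from a start 52 bases off. EME2 had 541 counts under DMSO and 59 under L1, a log2 ratio of -2.98 (-3.40 to -2.59). NUBP2, an iron-sulfur cluster assembly factor 9.75 kb away, had 972 and 500 counts and a log2 ratio of -0.75. MAPK8IP3 and SPSB3, the other near neighbours, were at -0.02 and -0.03. Within 500 kb, 33 protein-coding genes had at least 100 counts in 1 library, with a median log2 ratio of -0.03, 21 of them below 0, and EME2 had the lowest ratio of them. Neighbours of the remaining genes past 1.5-fold were chosen in the same way. Among those counted in both libraries, the median log2 ratio was -0.15 around MRPS27 (lowest -0.18, highest 0.09). It was -0.03 around MRPL49 (-1.13 to 5.81) and 0.11 around MRPS16 (-0.48 to 0.99).

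**Figure D3:**
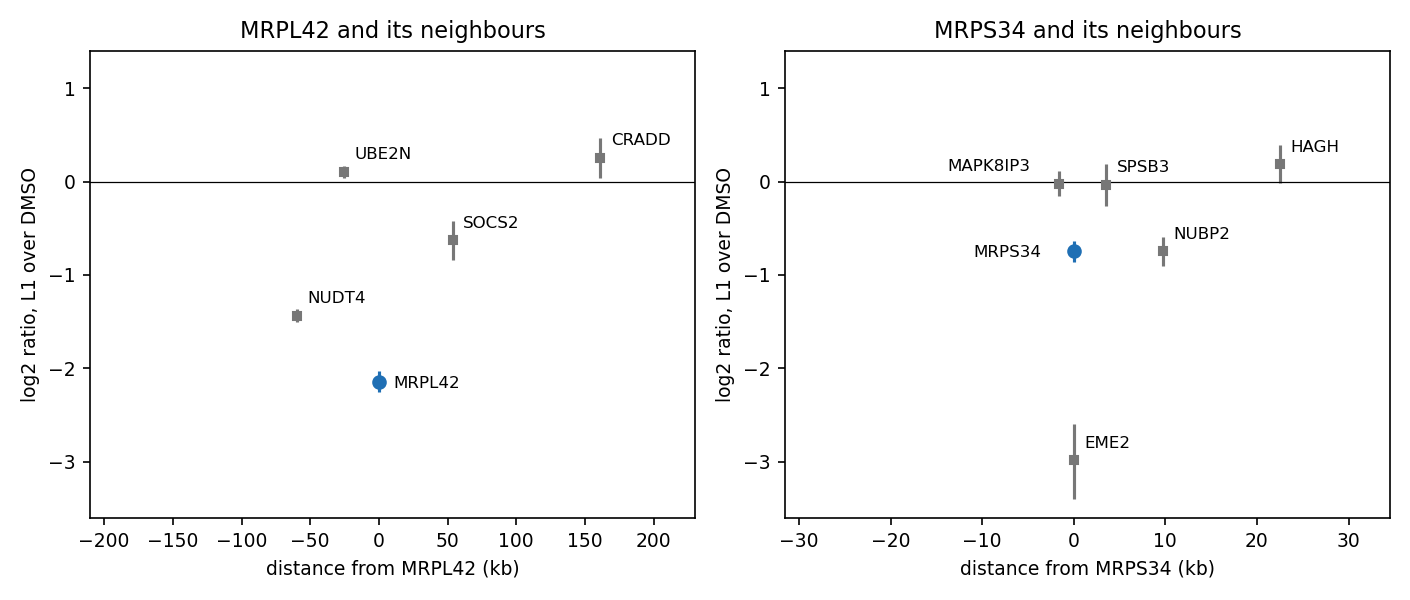
Log2 ratio of L1 over DMSO (y axis) with 95% counting intervals for MRPL42, MRPS34 (blue) and the protein-coding genes with at least 100 counts nearest to each (grey), against the distance in kb. NUDT4 at -1.44 and EME2 at -2.98 are the lowest neighbours, with UBE2N, CRADD, MAPK8IP3 and SPSB3 near 0 or above.

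MRPS27 (ENSG00000113048, chromosome 5 from 72219409 to 72320646, minus strand) encodes a small subunit protein of the pentatricopeptide repeat family, whose members bind RNA. It had 5146 counts under DMSO and 2669 under L1, with an FPKM of 8.29 and 4.98. The log2 ratio was -0.73 (95% interval -0.80 to -0.67). PTCD2, whose exons overlap its own on the opposite strand, had 762 and 702 counts and a log2 ratio of 0.09. Whether the counting used strand is not given in the sources used here, so reads of such overlaps cannot be assigned to 1 of the genes.

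The lower end of the order continued with proteins of the large subunit. MRPL1, of the mobile stalk through which used tRNAs leave, had 1547 counts under DMSO and 902 under L1, a log2 ratio of -0.57 (-0.69 to -0.45), and MRPL41 had 1010 and 602, a log2 ratio of -0.53. MRPL48, of the central protuberance, had a log2 ratio of -0.39, and MRPL30 had one of -0.36. Among small subunit genes, MRPS24, at the entry of the mRNA channel, had 930 and 597 counts and a log2 ratio of -0.43, and MRPS2 had one of -0.36. Their intervals all excluded 0. MRPS24 and MRPL30 share 26.7% and 25.7% of their 31-base words with another gene, mainly a readthrough transcript for MRPS24, and with overlapping genes summed their log2 ratios were -0.19 and -0.21.

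At the upper end, MRPS16 (ENSG00000182180, chromosome 10 from 73248843 to 73252693, minus strand), a small subunit protein whose loss causes a respiratory chain deficiency, had 743 counts under DMSO and 1043 under L1. Its FPKM was 8.37 under DMSO and 13.6 under L1, and its log2 ratio was 0.70 (95% interval 0.57 to 0.84). Exons of MRPS16 overlap those of DNAJC9, a histone chaperone gene on the same strand with 5568 and 4570 counts, and with both summed the log2 ratio was 0.04. The sum is mostly DNAJC9, and 8.83% of the words of MRPS16 occur in any other gene. MRPL49 (ENSG00000149792, chromosome 11 from 65122183 to 65127371, plus strand), a large subunit protein specific to mitochondria, had 638 and 867 counts, an FPKM of 6.52 in DMSO and 10.3 in L1, and a log2 ratio of 0.66 (0.51 to 0.81). Its exons overlap FAU (log2 ratio 0.24) and SYVN1 (-0.59) on the opposite strand.

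MRPL27, a large subunit protein close to the peptidyl transferase centre, was next, with 1169 counts under DMSO and 1488 under L1 and a log2 ratio of 0.56 (0.45 to 0.67), just under 1.5-fold. MRPS25 (log2 ratio 0.42), MRPL47 (0.39) at the exit of the polypeptide tunnel, MRPL18 (0.37) of the central protuberance and MRPL51 (0.33) followed. MRPL13 was at 0.30, MRPL36 at 0.29 and MRPL16, which lines the tRNA path of the large subunit, at 0.25. The intervals of these 8 genes all lay above 0, and none of their ratios reached 1.5-fold.

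The order of the genes by level was largely kept between the libraries. In DMSO the FPKM ranged from 2.98 for MRPS33 to 169 for MRPL12, with a median of 18.8, and in L1 it ranged from 1.82 for MRPL42 to 135 for MRPL12, with a median of 19.0. MRPL12, the flexible stalk protein that recruits translation factors and is also described as a partner of the mitochondrial RNA polymerase, had the highest FPKM in both libraries, and its log2 ratio was -0.32 (-0.38 to -0.26). Of its 31-base words, 67.2% also occur in AC139530.2, an overlapping gene. MRPL37 came second in both (130 in DMSO, 105 in L1; log2 ratio -0.30), followed by MRPS18B (85.2 and 80.0) and MRPL45 (79.2 and 75.8), the tether of the ribosome to the inner membrane. The lowest in DMSO after MRPS33 were MRPS25 (3.08), MRPL53 (3.49) and MRPS22 (3.58). Ranked by FPKM, 59 of the 78 genes moved by 5 places or fewer, and the largest move was 14 places, by MRPL1 from rank 24 to 38.

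**Figure D4:**
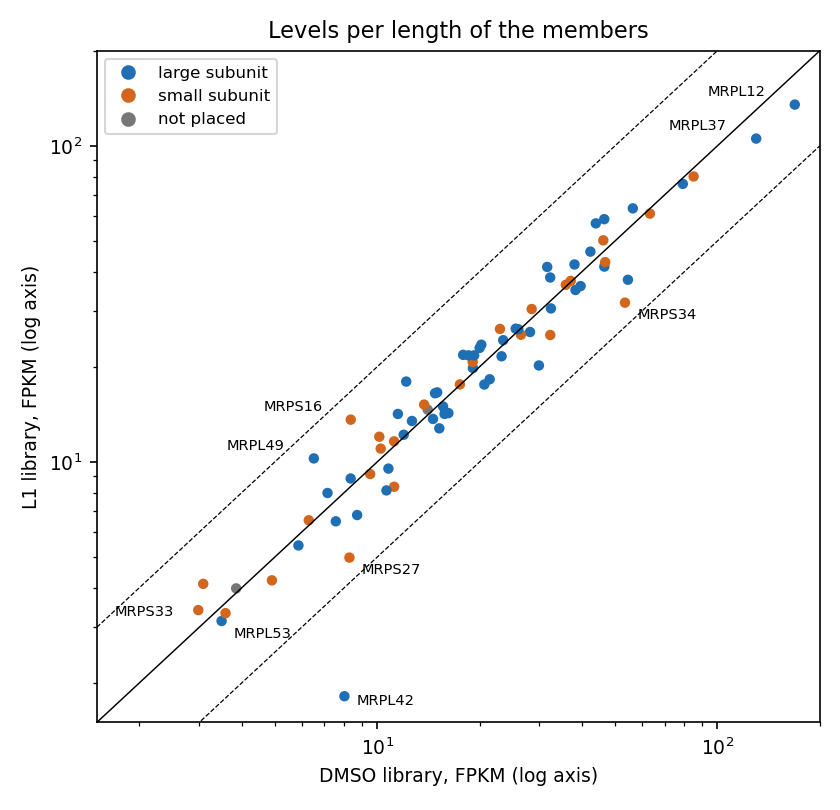
Deposited FPKM of the 78 genes in the DMSO library (x axis) and the L1 library (y axis), both on log axes, with the line of equality and dashed lines at 2-fold. MRPL42, at 8.01 in DMSO and 1.82 in L1, is the only point outside the dashed lines.

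FPKM values between genes depend on the gene length used by the authors. The length implied by counts and FPKM ranged from 0.578 kb for MRPL41 to 19.4 kb for MRPS27, whose exons cover 6.51 kb in GENCODE release 29, and for 12 genes it was above 5 kb, while the median protein-coding transcripts of the 78 genes in that release span 0.461 to 3.33 kb. Per kilobase of the median coding transcript and scaled to library size, MRPL42 ranked 3 of 78 in DMSO (142) and 58 in L1 (32.1), against 67 and 78 by FPKM. MRPS27 likewise ranked 7 in DMSO and 16 in L1 on the coding-transcript scale, and MRPL37 was first in both libraries. A count per gene is not limited to the coding transcript, so this scale can place genes with long further exons too high. MRPL42, with an implied length of 16.3 kb, and MRPS27 are such genes. Ratios between the libraries do not involve the length.

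The large subunit was represented by 50 genes and the small subunit by 26, with MRPL55 and MRPS36 assigned to neither here. MRPS30 and MRPS18A count as large subunit proteins, where they lie in the assembled ribosome in spite of their names. The large subunit genes had a median log2 ratio of -0.02, with 25 above 0 and 25 below, and the small subunit genes had one of 0.02, with 15 above and 11 below. Proteins with a bacterial counterpart had a median of 0.05 over 29 large subunit genes and 0.04 over 16 small subunit genes. Those found only in mitochondria had a median of -0.13 over 21 large subunit genes, 14 of them below 0, and -0.06 over 10 small subunit genes, 6 of them below 0. The 3 genes at least 1.5-fold lower all encode proteins specific to mitochondria, a class that holds 21 of the 50 large and 10 of the 26 small subunit genes. Of the 2 genes at least 1.5-fold higher, MRPL49 is also in this class and MRPS16 is not. The intervals of all 4 medians over genes included 0, but genes are not replicates of a condition, so this is no test of L1.

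By position in the ribosome, the 4 stalk genes, which form the landing site of translation factors, were all below 0 on their own counts. Besides MRPL12 they were MRPL10 (1342 counts under DMSO, 971 under L1; log2 ratio -0.25), MRPL11 (1729 and 1272; -0.23) and MRPL53 (-0.15). The interval of MRPL53 held 0, and none of the 4 reached 1.5-fold. MRPL53 shares 42.3% of its words with CCDC142, an overlapping gene on the same strand. With overlapping genes summed, the log2 ratio of MRPL53 was 0.16, above 0. Among all 18123 genes with at least 10 counts in 1 library, 9125 were below 0. Among the 6 genes of the polypeptide exit tunnel the median was 0.12, from -0.10 for MRPL24 and -0.06 for MRPL45 to 0.16 for MRPL23 and 0.39 for MRPL47. The 8 genes of the central protuberance had a median of -0.01, with MRPL48 (-0.39) and MRPS30 (-0.18) lowest and MRPL27 (0.56) and MRPL18 (0.37) highest.

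MRPS18A, MRPS18B and MRPS18C are paralogs, of which MRPS18C is the counterpart of the bacterial protein. MRPS18A had 1745 counts under DMSO and 1368 under L1 (FPKM 39.6 and 36.0), a log2 ratio of -0.14 (-0.24 to -0.04). MRPS18B had 4757 and 3857 counts, a log2 ratio of -0.09 (-0.15 to -0.03), and MRPS18C had 974 and 873 (FPKM 6.30 and 6.54), a log2 ratio of 0.06 (-0.08 to 0.19). All 3 were within 0.15 of 0 on the log2 scale, and the interval of MRPS18C held 0.

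Some of the start sites of the mitoribosomal genes share short sequences that the choice by symbol did not use. RefSeq promoter windows (GRCh38.p14, 250 bases before to 50 after the start) matched 69 of the 78 genes by symbol, with 85 windows in all. They were searched on both strands for CCGGAAG, the core bound by ETS factors, a family that includes FLI1 and GABPA, for AAGATGGC, a core of the YY1 motif, and for GCATGCGC, part of the NRF1 motif. The letters of these motifs do not overlap in the windows printed here. CCGGAAG was present in 38.8% of the windows of these genes, against 17.7% of the 14375 windows of genes with an FPKM value and 10.3% of all 35116 windows. AAGATGGC was present in 27.1%, against 4.93% and 2.89%, and GCATGCGC in 7.06%, against 4.85% and 3.05%. Of the 69 genes, 25 held none of these motifs and 1 held all of them. Of the 24 matches to AAGATGGC, 17 (70.8%) began within 50 bases of the start, near the 66.9% among genes with an FPKM value. Of the 45 matches to CCGGAAG, 31 (68.9%) did, against 52.7% among those genes.

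To show what these matches look like in the genes with the largest differences, the windows of the 4 genes past 1.5-fold that have a single window are given, with the matches in capitals, read 5′ to 3′ on the strand of the gene. The window of MRPL42 is chr12:93467264-93467563 (plus strand), that of MRPS34 chr16:1773085-1773384 (minus), that of MRPS27 chr5:72320191-72320490 (minus) and that of MRPS16 chr10:73252595-73252894 (minus).
MRPL42: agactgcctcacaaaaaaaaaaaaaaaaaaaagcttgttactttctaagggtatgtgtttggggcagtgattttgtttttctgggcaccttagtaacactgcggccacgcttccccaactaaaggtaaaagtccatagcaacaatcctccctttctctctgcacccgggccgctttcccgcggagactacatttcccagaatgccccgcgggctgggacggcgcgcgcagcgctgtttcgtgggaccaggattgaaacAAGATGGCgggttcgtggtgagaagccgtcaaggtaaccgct
MRPS34: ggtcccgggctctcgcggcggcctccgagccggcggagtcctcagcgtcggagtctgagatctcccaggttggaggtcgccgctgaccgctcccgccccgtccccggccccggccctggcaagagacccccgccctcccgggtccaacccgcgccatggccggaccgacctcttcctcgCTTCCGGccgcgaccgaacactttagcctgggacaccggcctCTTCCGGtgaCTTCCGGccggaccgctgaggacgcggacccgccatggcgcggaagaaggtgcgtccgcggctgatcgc
MRPS27: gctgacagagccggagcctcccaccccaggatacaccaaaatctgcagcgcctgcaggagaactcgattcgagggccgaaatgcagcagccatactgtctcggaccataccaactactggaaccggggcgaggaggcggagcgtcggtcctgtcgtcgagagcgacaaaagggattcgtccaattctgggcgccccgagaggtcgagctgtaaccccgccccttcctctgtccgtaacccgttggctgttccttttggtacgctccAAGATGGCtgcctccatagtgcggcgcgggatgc
MRPS16: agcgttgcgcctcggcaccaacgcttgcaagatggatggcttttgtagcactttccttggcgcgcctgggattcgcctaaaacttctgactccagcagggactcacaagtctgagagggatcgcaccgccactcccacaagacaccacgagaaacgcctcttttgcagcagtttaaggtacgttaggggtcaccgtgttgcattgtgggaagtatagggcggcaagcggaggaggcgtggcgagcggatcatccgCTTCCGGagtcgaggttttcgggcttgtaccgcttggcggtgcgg

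Windows of MRPL42 and MRPS27 each hold AAGATGGC 1 time. The window of MRPS34 holds CTTCCGG, the reverse complement of the ETS core, 3 times, and that of MRPS16 holds it 1 time. MRPL49 has 2 windows, and the second holds AAGATGGC. The 30 genes with the ETS core in a window had a median log2 ratio of 0.05 and the other genes with a window one of -0.06, and for AAGATGGC the medians were -0.06 with it (21 genes) and 0.01 without it. For GCATGCGC they were 0.07 with it (6 genes) and -0.06 without it, and none of these differences was tested. A match is a description of letters, and binding was not measured.

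Further genes of mitochondrial translation were taken from lists. The 5 mitoribosomal proteins with other symbols had log2 ratios from -0.16 for PTCD3 to 0.24 for DAP3, with AURKAIP1, GADD45GIP1 and CHCHD1 between them, and DAP3, a GTP-binding protein of the small subunit first described in cell death, had 3144 counts under DMSO and 3196 under L1. The 28 assembly factors had a median of 0.08, of which 3 were past 1.5-fold upwards and 1 downwards. METTL15, a methyltransferase of the small subunit rRNA, had 174 and 359 counts and a log2 ratio of 1.26 (0.99 to 1.53), the highest of the list, followed by YBEY (101 and 149 counts; 0.77), an endoribonuclease. The lowest were RBFA (-0.59), a factor of small subunit maturation, and METTL17 (-0.52).

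The 19 translation factors had a median of -0.05. TSFM, the exchange factor of the elongation factor TUFM, had 949 counts under DMSO and 1536 under L1, a log2 ratio of 0.91 (0.79 to 1.03), whereas TUFM itself had 9267 and 7094, a log2 ratio of -0.17. MTIF3, an initiation factor, was at 0.55. At the other end, MRRF, the ribosome recycling factor, had 1019 and 544 counts and a log2 ratio of -0.69 (-0.85 to -0.54), and OXA1L, the insertase that receives new proteins from the ribosome, was at -0.45. The 20 genes of mitochondrial tRNA charging had a median of -0.01 and no member past 1.5-fold, from -0.48 for WARS2 and -0.46 for MARS2 to 0.41 for TARS2.

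**Figure D5:**
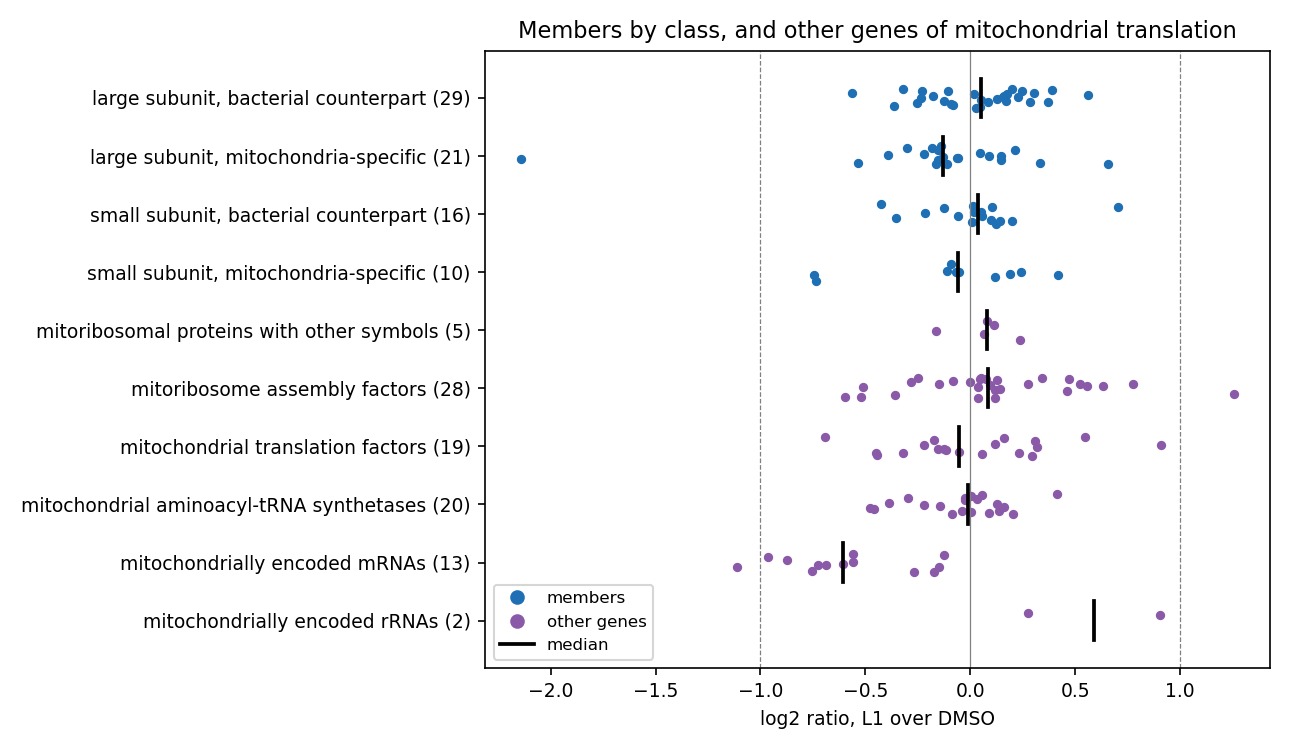
Log2 ratio of L1 over DMSO (x axis) for the mitoribosomal protein genes in 4 classes (blue, without the 2 genes placed in neither subunit) and for other genes of mitochondrial translation (purple), with the number of genes in parentheses and the median of each list as a black bar. The mitochondrially encoded mRNAs have a median of -0.61, and the medians of the nuclear-encoded lists lie between -0.13 and 0.08.

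Beside these nuclear-encoded genes, the RNAs that mitoribosomes contain or translate differed more between the libraries. The 13 mitochondrially encoded mRNAs had a median log2 ratio of -0.61 and made up 9.06% of the DMSO library and 6.18% of the L1 library. They ranged from MT-ATP8 (64248 counts under DMSO, 25629 under L1; -1.11) and MT-ND4 (-0.96) to MT-ND6 (-0.15) and MT-ND1 (-0.13). The rRNAs had higher scaled counts in L1, with a log2 ratio of 0.91 for MT-RNR1 of the small subunit and 0.27 for MT-RNR2 of the large subunit. The RNA was captured with mRNA beads, so these counts do not measure the amount of rRNA. In bulk RNA, less of an RNA in every cell and a smaller share of cells that hold it cannot be told apart. The relation of these ratios to those of the mitoribosomal protein genes was not tested.

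Markers of the cell line were present in both libraries. GATA1 had 6469 counts under DMSO and 5923 under L1, and TAL1, KLF1, HBG1, HBG2, JAK2, EPOR and ITGA2B all had at least 356 counts in each. Of 10 markers of other cell types, PECAM1, which is also expressed on blood cells, had 4665 and 3026 counts, and each of the other 9 had at most 5.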

How the data were processed

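RNA of HEL cells treated with L1 or DMSO was captured with mRNA beads and sequenced as 1 library per condition. The authors aligned reads with HISAT2 2.1.0 (hg38) and deposited raw read counts per Ensembl gene, without normalization, and FPKM values for genes above 1 CPM in both libraries. StringTie and fastp are also named in the submitters' processing notes; the counting program, its strand setting and the annotation are not given in the sources used here. The deposited FPKM values carry a ratio between libraries of 0.863, the inverse of the TMM ratio of 1.16.

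Counts were scaled by TMM (edgeR 4.0.16 in R 4.3.3); DESeq2 1.42.0 gave alternative size factors. Medians and fold counts over genes had 2 added as prior count, over genes with at least 10 counts in 1 library; single genes used no prior count and exact intervals (scipy 1.17.1, Python 3.11.15), which cover counting error only. A median over genes has an exact binomial interval from the ordered values. This interval treats genes as independent and does not cover the spread between cultures. Positions, exon overlaps and 31-base words were read from release 29 of GENCODE (GRCh38), where 58254 of 61806 identifiers of the count table were found. Ratios and counting intervals were tested on simulated counts with counting error only, and the interval of a median on simulated normal values. Neither simulation held a spread between cultures.

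The genes named are those past 2-fold, the 10 highest and 10 lowest by log2 ratio among those with at least 100 counts, the 4 highest and 4 lowest by FPKM in DMSO, the MRPS18 paralogs, and the 2 highest and 2 lowest of each list. Some genes that this rule names are not reported here. The genes, lists and thresholds were chosen with earlier results of these data known. The alternatives were other scalings, prior counts and filters, the FPKM values, overlapping genes summed, whole intervals past the fold and protein-coding genes as background.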

Additional observations from a re-analysis of the deposited data

How the results depend on the processing

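No paired analysis was possible because DMSO and L1 have 1 library each. The median log2 ratio of the 78 genes lay between -0.01 and 0.07 over all alternatives and was 0.02 without MRPL42, an alternative chosen after seeing the data, as was the one of genes with little shared sequence. MRPL42 stayed the only gene past 2-fold in every alternative that included it. The number at least 1.5-fold higher, 2, went to 1 with overlapping genes summed, to 0 when the whole counting interval had to pass the fold, and to 3 with total counts or upper-quartile scaling, where MRPL27 passed it. The number at least 1.5-fold lower, 3, went to 4 with DESeq2 size factors, where MRPL1 passed it. Of 390 values of single genes, 384 stayed within the gene's counting interval. Many of these 384 could hardly have left it. The 78 values from FPKM carry the TMM ratio, and summing overlaps alters only the 16 genes with a same-strand overlap. Another 4 values left their interval and kept their sign, and 2 left it and changed sign. Both of these arose with overlapping genes summed, where the whole locus is counted as 1 gene. The log2 ratio of MRPL28 went from -0.23 to 0.066 and that of MRPS17, whose interval held 0, from 0.11 to -0.25. Some values changed sign inside their interval. Among them were MRPL53, from -0.15 to 0.16 with overlapping genes summed, and MRPS6, from 0.007 to -0.02 with DESeq2 size factors. Over all genes, the share past 2-fold was 19.5% with no filter and 4.64% on FPKM values. The highest level over the lowest in DMSO was 56.7-fold by FPKM and 80.6-fold per median coding transcript.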

Other observations

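Pseudogenes of the mitoribosomal protein genes took few counts. The 75 annotated ones in the count table held 490 counts in DMSO and 458 in L1 in all, and 2 of them, MRPL45P2 (209 and 197 counts) and MRPS31P5 (213 and 177), had at least 100 in 1 library. MRPL45 itself shares 23.0% of its 31-base words with another gene, mainly MRPL45P2.

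In GENCODE release 29, exons of 16 of the 78 genes overlap another annotated gene on the same strand. Those of 29 overlap one on the opposite strand, while 37 have no overlap of either kind. The annotation behind the counts is not given. For genes such as MRPS27, with an implied length of 19.4 kb against 6.51 kb of exons in release 29, its overlaps may differ. The 62 genes that share under 10% of their words with another gene had a median log2 ratio of 0.05.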
